A study of Rattus norvegicus with 48 samples.

Results

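The plantaris response of the LRT line to 3 d of hindlimb immobilization was measured by RNA sequencing in 12 of the 48 libraries of the study, chosen by their labels as Plantaris LRT HI (n = 6 rats) and Plantaris LRT CTRL (n = 6 other rats). LRT rats are low responders to endurance training, from generation 19 of a line bred for a small gain in running capacity from treadmill training, and HRT rats are the high responders bred beside them. The animals were 14-month-old females, selectively bred and not inbred, and all of them had been trained on a treadmill earlier in life to score their response. In HI rats 1 hindlimb was cast under anaesthesia with the foot in plantar-flexion, and the muscle was collected after 3 d. CTRL rats were anaesthetised and had no cast, so HI and CTRL are different animals and not 2 legs of the same animal. Puromycin was injected before tissue collection to measure protein synthesis, a measurement that the study made in CTRL rats as well as HI rats. The other 36 libraries hold the HRT plantaris and the soleus of the same 24 rats, and the soleus libraries entered the shared fit (its filter on low counts, spread and RIN term) and a check of muscle type.

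The plantaris is an ankle extensor made mostly of fast-twitch fibres. When a muscle is cast in a shortened position it loses load and stretch, and its protein balance turns toward breakdown within days. The breakdown runs through ubiquitin ligases that mark muscle proteins, the proteasome that degrades what they mark, and the autophagosomes and lysosomes that take up organelles and larger complexes. Forkhead box O transcription factors, histone deacetylases and stress-responsive factors are known to control many of these genes.

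The comparison asks which genes a short cast changes in the muscle of low responders. The 12 libraries held totals of 30.21 to 33.99 M (mega) estimated counts in CTRL (median 31.74) and 26.82 to 36.37 M in HI (median 31.76). RNA integrity numbers (RIN), on which 10 is intact RNA, were 8.1 to 8.5 in CTRL and 8.3 to 8.6 in HI. The 30 pairs of rats within a group differed by a mean chi-square of 19.3 to 263.0 per gene, far above counting noise, so no library was a repeat of another. Levels are given as CPM, the usual depth-scaled read count, with library totals adjusted by TMM normalization. Log2 fold changes are HI minus CTRL with their standard errors, and adjusted p is the Benjamini-Hochberg value of the quasi-likelihood test of edgeR over all genes tested. "Rose" and "fell" are used for genes with an adjusted p under 0.05, and a DEG also has an absolute log2 fold change over 1.

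Muscle type matched the labels. The summed level of 6 fast-fibre markers was 23753 to 31588 CPM in LRT plantaris CTRL against 2400 to 4345 CPM in LRT soleus CTRL, while 4 slow-fibre markers summed to 2987 to 4561 CPM in plantaris and 13844 to 23301 CPM in soleus. Of the fast-fibre markers 4 of 6 fell in HI, and their sum ran from 7117 to 19835 CPM with no overlap with CTRL. Of the slow-fibre markers 2 of 4 also fell, and their sum in HI, 1566 to 5077 CPM, overlapped with CTRL. Fibroblast and tendon markers summed to 392 to 1030 CPM in CTRL and 151 to 597 CPM in HI, with 5 of 7 lower, and fat cell markers summed to 44.2 to 77.7 CPM in CTRL and 88.2 to 137 CPM in HI, with 3 of 4 higher. Leukocyte markers summed to 17.9 to 29.4 CPM and 16.4 to 31.5 CPM (1 of 9 higher and 2 lower), red blood cell markers to 284 to 1122 CPM and 185 to 503 CPM (0 of 6 called), and endothelial markers to 50.7 to 93.1 CPM and 30.8 to 69.6 CPM (1 of 6 higher and 2 lower). Of all genes tested 28.7% were called. Markers, like the lists below, were named from tables of changed genes, so their counts are not read against that share. No marker was at 0 in all libraries, and in whole muscle fewer cells of a type and less RNA per cell cannot be told apart.

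Immobilization changed a large share of the plantaris transcriptome in both directions. Of 16960 genes tested, 4862 (28.7%) passed the test, 2560 of them higher in HI (15.1%) and 2302 lower (13.6%). DEGs numbered 879 (5.18%), of which 466 were higher (2.75%) and 413 lower (2.44%). An absolute log2 fold change over 2 was reached by 119 DEGs, over 3 by 36 and over 4 by 12. The 2 groups were fully apart in 1768 genes (10.4% of those tested), with all 6 HI rats above CTRL in 795 (4.69%) and below in 973 (5.74%). The median log2 fold change of all genes was 0.013.

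The balance of directions differed between scalings and between tests. With library totals in place of TMM the median of all genes shifted by 0.24 on the log2 scale, and 921 DEGs were higher and 236 lower. At the same TMM scaling limma-voom gave 368 higher and 505 lower DEGs. The directions of genes below are relative to the TMM scale, and no named gene reversed under any alternative.

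**Figure D1:**
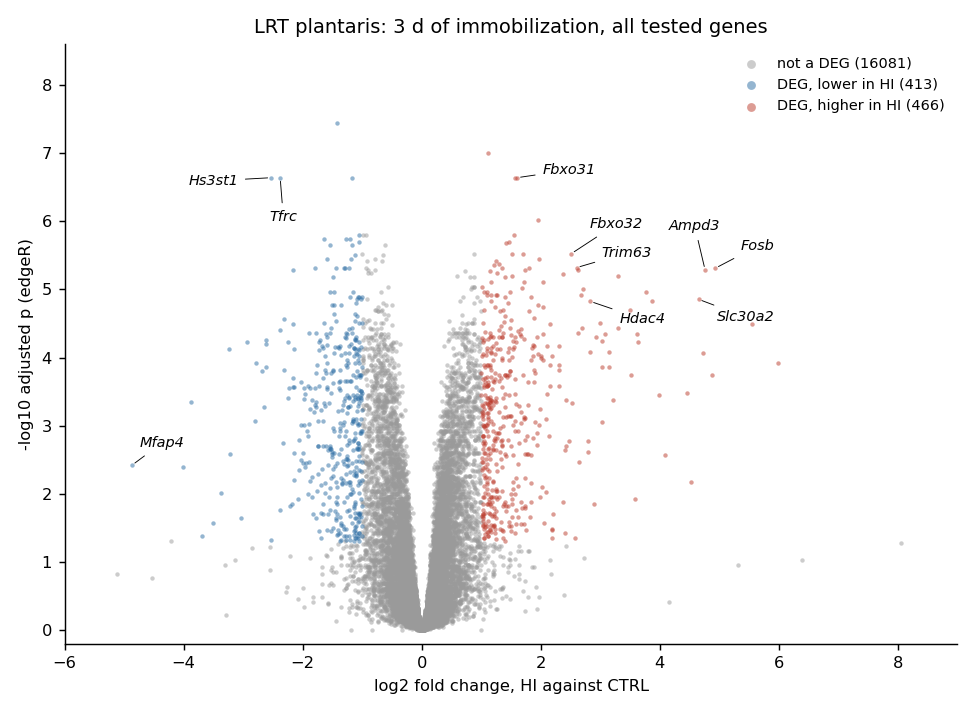
The plot has the log2 fold change of HI over CTRL on the x axis and -log10 of the adjusted p on the y axis, with 1 point per gene tested and DEGs coloured by direction. Higher (466) and lower (413) DEGs lie on both sides of 0, and Fosb, Ampd3 and Slc30a2 stand farthest to the right among the labelled genes.

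Gene symbols were available for 1149 of the 31998 identifiers, because only the study's own tables of changed genes pair the 2. Of these, 741 came from the table of this same comparison, which holds genes past a fold change and p cut-off, so that the counts, the medians and the sizes of change in each list below largely follow from how the names were obtained. The other 408 symbols came only from tables of other comparisons and leave out, by construction, the genes of that table, so they are no unselected sample either. Of these, 83 (20.3%) passed the test here, a share that cannot be read against that of all genes. The lists are therefore given as a description of 321 named genes in 18 roles, and the count among members named from other tables only is given to show where the names came from. Of all genes tested 15.1% rose and 13.6% fell. For the same reason no list count below is read as more or less than these shares.

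The largest rises among named DEGs without overlap were in Fosb, Ampd3, Slc30a2, Gpnmb and Nrip3, and 640 of the 879 DEGs have a symbol. Fosb encodes a partner of the AP-1 transcription factor that is induced by stimuli. Its level was 0.335, 0.69 and 1.33 CPM (lowest, median and highest) in CTRL and 9.28, 21.7 and 27.6 CPM in HI. All 6 HI rats were above all CTRL rats, and the log2 fold change was 4.93 ± 0.70 (adjusted p = 4.9e-06). Ampd3 encodes an AMP deaminase that converts AMP to IMP. In CTRL it stood at 7.37, 10.2 and 18.5 CPM and in HI at 28.6, 139 and 744 CPM, without overlap but with a wide spread in HI (log2 fold change 4.76 ± 0.69, adjusted p = 5.2e-06). For Gpnmb, a transmembrane glycoprotein of lysosomes and melanosomes, CTRL rats ran from 3.35 to 6.73 CPM (median 4.6) and HI rats from 12.5 to 162 CPM (median 38.6), a log2 fold change of 3.77 ± 0.58 (adjusted p = 1.1e-05). Nrip3 was at 1.08, 1.25 and 1.75 CPM in CTRL and at 2.02, 5.54 and 55.3 CPM in HI, without overlap but with a 27.4-fold range among HI rats (log2 fold change 3.61 ± 0.62, adjusted p = 4.5e-05).

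The largest falls among named DEGs without overlap were in Mfap4, Snai3, Lgi2, Hs3st1 and Lrrc52. Mfap4, a microfibril-associated glycoprotein, was listed at 0 in 5 of 6 HI rats and at 0.599 CPM in the other, against 1.63, 2.22 and 5.92 CPM in CTRL (log2 fold change -4.87 ± 1.29, adjusted p = 0.0038). It was also listed at 0 in 3 of 6 HRT CTRL rats, and limma-voom gave an adjusted p of 0.056. With the group so near 0 the size of the fall is loosely set, and its log2 fold change ran from -4.43 to -9.41 over the alternatives, the latter without HI replicate 4, the HI rat above 0. Snai3, a zinc finger repressor of the Snail family, went from 8.52, 10.5 and 13.3 CPM in CTRL to 0.245, 0.723 and 4.86 CPM in HI, with every HI rat below every CTRL rat (log2 fold change -2.80 ± 0.63, adjusted p = 0.00086). Hs3st1, a heparan sulfate sulfotransferase, showed the most even fall of the group. Its values were 15.3, 25.1 and 34.3 CPM in CTRL and 2.15, 4.33 and 9.2 CPM in HI (log2 fold change -2.53 ± 0.30, adjusted p = 2.3e-07). Lgi2, a secreted leucine-rich repeat protein, was at 29.6 to 69.8 CPM in CTRL and at 1.31 to 21.5 CPM in HI (-2.61 ± 0.50, adjusted p = 0.00014). Lrrc52 lay under 1 CPM in every rat, from 0.305 to 0.771 CPM in CTRL and from 0 to 0.297 CPM in HI (-2.38 ± 0.77, adjusted p = 0.017), and lost its call without HI replicate 1 (adjusted p = 0.053) and under limma-voom (adjusted p = 0.058).

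Ubiquitin ligases that mark muscle proteins for breakdown rose several-fold, but the ubiquitin system did not move as a whole. Trim63 (ENSRNOG00000016543), the muscle ring finger ligase of thick-filament proteins, was at 206, 231 and 271 CPM in CTRL and at 396, 1067 and 2689 CPM in HI. Fbxo32 (ENSRNOG00000006738), the F-box protein atrogin-1, was at 115, 188 and 395 CPM in CTRL and at 531, 1224 and 1723 CPM in HI. For both genes all 6 HI rats were above all 6 CTRL rats. On the log2 scale Trim63 was higher by 2.60 ± 0.37 (adjusted p = 4.8e-06) and Fbxo32 by 2.51 ± 0.34 (adjusted p = 3e-06). Fbxo31, another F-box subunit, had the smallest p of the list, with 29.1, 35.4 and 43.9 CPM in CTRL and 67.9, 111 and 151 CPM in HI (1.6 ± 0.18, adjusted p = 2.3e-07).

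Of the 34 members of the ubiquitin system 18 rose, 9 fell and 7 did not pass, with a median log2 fold change of 1.12 (0.013 for all genes), a value set largely by the 26 members named from the table of this comparison. Among the 8 members named from other tables only, 1 rose. The N-degron ligase Ubr4 rose from a median of 299 to 605 CPM (1.24 ± 0.19), and Nploc4, a cofactor of the p97 unfoldase, from 78.0 to 190 CPM (1.48 ± 0.25). Zfand2a, an arsenite-inducible protein that binds proteasomes, had the largest rise of the list, from 12 to 17.6 CPM in CTRL to 27.9 to 386 CPM in HI (3.5 ± 0.56, adjusted p = 2e-05).

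Members that fell were Trim35, Trim72, Klhl31, Ube2ql1, Cblc, Nhlrc1 and the Asb genes Asb4, Asb10 and Asb18. Trim35, a ligase of the tripartite motif family, was at 213, 300 and 344 CPM in CTRL and at 103, 124 and 177 CPM in HI, without overlap (-1.18 ± 0.16, adjusted p = 2.2e-06). Trim72, known for its part in membrane repair, went from 151 to 193 CPM in CTRL to 33.6 to 142 CPM in HI (-1.13 ± 0.27), and Klhl31, a kelch protein of striated muscle, from a median of 1045 to 466 CPM (-1.26 ± 0.28). Family names did not tell the direction, since Asb13 rose (1.35 ± 0.23) and Asb5 had a log2 fold change of 0.20 ± 0.28 that did not pass.

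The promoter of Trim63 is printed because it was the only 1 of 13 risen members of the ubiquitin system with a promoter entry that held the forkhead box O element TGTTTAC within the 250 bases before the start. In all 18 members rose, and Fbxo32 was among those without a promoter entry, so its promoter was not searched. The element, searched on both strands, was in 3.21% of all 33469 rat promoters of that length. The sequence is from RefSeq on GRCr8, chr5:151816986-151817235 on the plus strand, with the match in capitals.
Trim63: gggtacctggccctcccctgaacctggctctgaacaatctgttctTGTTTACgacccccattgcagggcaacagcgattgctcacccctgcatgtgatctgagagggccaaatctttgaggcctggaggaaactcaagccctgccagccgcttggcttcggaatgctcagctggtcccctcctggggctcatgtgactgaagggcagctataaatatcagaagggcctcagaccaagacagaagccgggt
Among the 9 risen autophagy and lysosome genes with a promoter entry 1 (Gpnmb) held the element, and among the 5 risen genes of insulin, IGF and translation control 0 did. A match is a string of letters in a window and says nothing of binding, and its absence says only that these letters are not in the window.

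The 7 proteasome genes with a name all rose, with log2 fold changes of 1.08 to 1.62. Each was named from the table of this comparison, so that neither the count nor the lower end of the range is a result about the proteasome. Psmd8, a subunit of the regulatory particle, was at 51.2, 55.2 and 70.1 CPM in CTRL and at 74.8, 130 and 311 CPM in HI (1.62 ± 0.27, adjusted p = 4.1e-05). Psmd11 (1.38 ± 0.23) and Psmd3 (1.29 ± 0.22), also of the regulatory particle, and the ubiquitin receptor Adrm1 (1.16 ± 0.21) had no overlap between groups. Of the core particle, Psmb3 went from 51.5 to 58.4 CPM in CTRL to 61.4 to 226 CPM in HI (1.17 ± 0.25, adjusted p = 0.00042), whereas Psma5 overlapped in 1 HI rat (1.15 ± 0.24). Psmd5, an assembly chaperone, overlapped through 1 high CTRL rat at 35.7 CPM (1.08 ± 0.25).

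Autophagy and lysosome genes rose in 12 of 14 cases, and the other 2, Rilp and Hyal1, fell. Of the 14, 13 were named from the table of this comparison. The count is therefore not read against all genes, of which 15.1% rose and 13.6% fell. The median log2 fold change was 1.38, and the single member named from another table rose. Gaa, the lysosomal enzyme that digests glycogen, was at 81.7, 110 and 128 CPM in CTRL and at 168, 230 and 359 CPM in HI (1.22 ± 0.17, adjusted p = 4.4e-06). Map1lc3b, whose protein is lipidated on autophagosomes, went from 44.7, 51.6 and 57.5 CPM to 67.6, 116 and 173 CPM (1.26 ± 0.18, adjusted p = 5.7e-06), and Tp53inp1, an autophagy protein induced by p53, from 10.3, 13.6 and 15.7 CPM to 23.9, 38.8 and 54.1 CPM (1.52 ± 0.22, adjusted p = 6.3e-06). None of the 3 overlapped between groups. Cargo receptor Sqstm1 reached 622 to 2117 CPM in HI from 371 to 537 CPM in CTRL (1.68 ± 0.25), and the protease cathepsin L, Ctsl, 172 to 1008 CPM from 104 to 162 CPM (2.04 ± 0.30). Rilp, an effector of Rab7 on late endosomes, went the other way, from 17.7 to 23.2 CPM in CTRL to 2.69 to 12.4 CPM in HI (-1.39 ± 0.25, adjusted p = 7.3e-05).

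**Figure D2:**
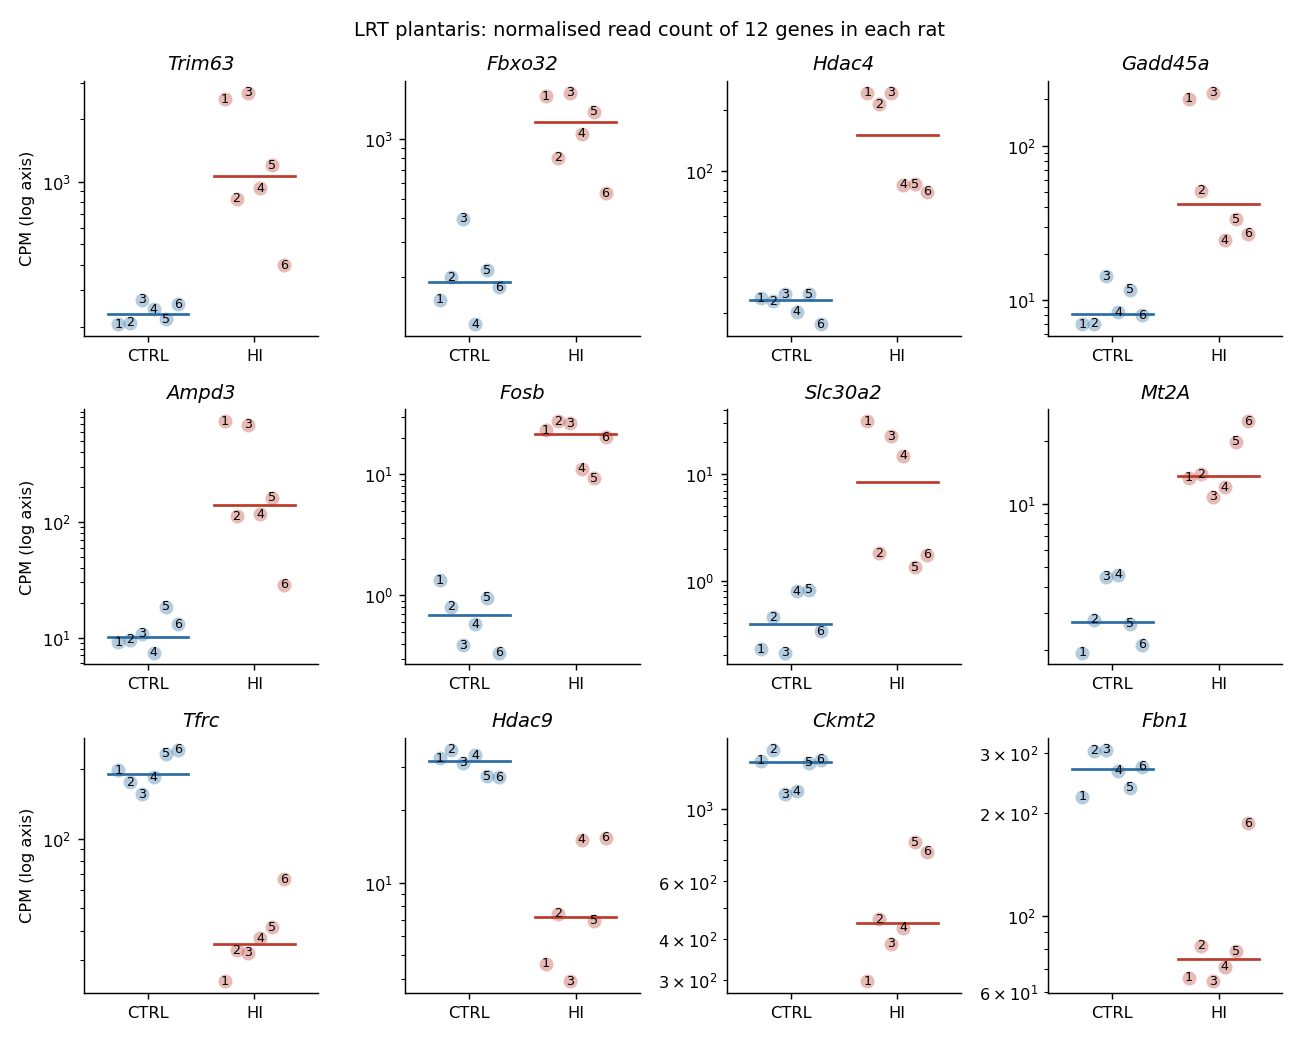
Each panel plots the CPM of 1 gene on a log axis for the 6 CTRL and the 6 HI rats, with points numbered by replicate and a line at the group median. In all 12 genes the groups do not overlap, and HI replicates 1 and 3 are the 2 highest of HI for Trim63, Fbxo32, Hdac4, Gadd45a, Ampd3 and Slc30a2 but not for Fosb or Mt2A.

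Genes of the denervation programme split by identity. Class II histone deacetylases moved in opposite directions. Hdac4 (ENSRNOG00000020372), which represses transcription in denervated muscle, was at 17.5, 23.1 and 24.7 CPM in CTRL and at 79.2, 150 and 244 CPM in HI (2.83 ± 0.44, adjusted p = 1.5e-05). Hdac9 (ENSRNOG00000004158), of the same class, was at 27.3, 31.9 and 35.5 CPM in CTRL and at 3.9, 7.18 and 15.3 CPM in HI (-1.79 ± 0.26, adjusted p = 4.9e-06). In both genes the groups were fully apart, in opposite order. Gadd45a, a stress protein induced in wasting muscle, went from 6.97, 8.16 and 14.3 CPM to 24.5, 42.2 and 221 CPM (3.29 ± 0.48, adjusted p = 6.3e-06).

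Of the 17 members of the denervation and synapse list 7 rose, 6 fell and 4 did not pass, and of the 5 named from other tables, 1 rose. The myogenic factor Myog rose from 13.9 to 27.6 CPM in CTRL to 44.3 to 260 CPM in HI (2.62 ± 0.44, adjusted p = 4.4e-05) and the transcription factor Runx1 from 1.41 to 3.26 CPM to 3.62 to 61.1 CPM (3.15 ± 0.57, adjusted p = 8.2e-05). The myogenic factors Myod1 and Myf6 did not pass, with log2 fold changes of 0.25 ± 0.29 and 0.38 ± 0.34. Musk, the receptor kinase of the neuromuscular junction, rose with overlap (1.11 ± 0.42, adjusted p = 0.041). Ache, the acetylcholinesterase of the synaptic cleft, fell from 33.2 to 46.8 CPM in CTRL to 2.99 to 28.4 CPM in HI (-1.91 ± 0.38, adjusted p = 0.00026), while Prima1, its membrane anchor, rose with overlap (1.54 ± 0.45, adjusted p = 0.0085). For Prima1 3 HI rats were above all CTRL rats and 2 HI rats were below all of them. The neurotrophin Ntf4 fell (-1.81 ± 0.40), while Bdnf, another neurotrophin, had -0.18 ± 0.58 and did not pass. Gap43 (-1.54 ± 0.38), Nrep (-2.03 ± 0.40) and the receptor kinase Ret (-1.29 ± 0.22) were also lower.

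Metal handling genes separated the groups in both directions. Metallothioneins are small cysteine-rich proteins that bind zinc and copper, and their transcription is known to answer to zinc through the metal response element. Mt2A (ENSRNOG00000043098) was at 1.94, 2.73 and 4.59 CPM in CTRL and at 10.8, 13.5 and 24.8 CPM in HI (2.31 ± 0.44, adjusted p = 0.00015). Slc30a2 (ENSRNOG00000054142), a zinc exporter that loads vesicles, was at 0.21, 0.394 and 0.82 CPM in CTRL and at 1.34, 8.35 and 31.4 CPM in HI (4.65 ± 0.72, adjusted p = 1.4e-05). Tfrc (ENSRNOG00000001766), the transferrin receptor that brings iron into cells, was at 155, 190 and 242 CPM in CTRL and at 24.2, 35.0 and 66.8 CPM in HI (-2.38 ± 0.28, adjusted p = 2.3e-07). The 3 genes had no overlap between groups, Tfrc downward.

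In all, 5 of the 9 metal handling members rose, 2 fell and 2 did not pass, with 0 of the 2 members named from other tables called. Mt1 was at 0.381, 0.668 and 1.81 CPM in CTRL and at 3.74, 4.53 and 6.81 CPM in HI (2.62 ± 0.38, adjusted p = 5.2e-06). Its identifier lies on chromosome 17 in the study's table and Mt1 on chromosome 19 in RefSeq, so that its reads may be shared with a near-identical copy and the value is uncertain. Slc31a2, a copper transporter, went from 7.89, 9.26 and 10.9 CPM to 11.7, 18.7 and 29.6 CPM (1.09 ± 0.17, adjusted p = 1.1e-05), and Slc41a3, of a magnesium transporter family, from 49.2, 52.6 and 58.3 CPM to 1.78, 8.71 and 24.1 CPM (-2.34 ± 0.57, adjusted p = 0.0018). LOC100909856, named as like the metal-responsive transcription factor, was listed at 0 in 5 of 6 CTRL rats and in 2 of 6 HI rats (3.59 ± 1.11, adjusted p = 0.012), and limma-voom gave an adjusted p of 0.12. Its log2 fold change ran from 3.14 to 8.80 over the alternatives, the latter without CTRL replicate 4, the CTRL rat above 0, and sets no size. Mt3, another metallothionein, under 1 CPM in every rat, had a log2 fold change of -0.92 ± 0.47 and Slc25a28, an iron carrier of mitochondria, 0.28 ± 0.17, and neither passed.

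The promoters of Mt2A and Slc30a2 are printed because they are the risen members with the largest fold changes besides the uncertain Mt1 and LOC100909856, and because the 250 bases before a start of each hold the core of the metal response element, TGCACNC or TGCGCNC, searched on both strands. In the GRCr8 sequences of RefSeq, Mt2A lies at chr19:10838709-10838958 on the minus strand with 4 matches and Slc30a2 at chr5:151843201-151843450 on the plus strand with 2 matches. A further Slc30a2 entry, at chr5:151843931-151844180 on the plus strand, had 0 matches and is not printed. Capitals mark the matches, which read as the reverse complement where they lie on the other strand.
Mt2A: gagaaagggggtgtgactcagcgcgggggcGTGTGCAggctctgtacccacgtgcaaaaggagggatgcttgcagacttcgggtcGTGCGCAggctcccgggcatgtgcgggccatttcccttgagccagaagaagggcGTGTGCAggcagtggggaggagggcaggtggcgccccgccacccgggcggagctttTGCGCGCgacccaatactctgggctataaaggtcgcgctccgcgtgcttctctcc
Slc30a2: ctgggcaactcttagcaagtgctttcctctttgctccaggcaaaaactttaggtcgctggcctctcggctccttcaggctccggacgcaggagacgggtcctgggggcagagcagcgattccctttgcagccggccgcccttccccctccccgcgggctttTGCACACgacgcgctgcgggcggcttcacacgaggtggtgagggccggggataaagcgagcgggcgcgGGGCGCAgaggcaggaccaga
Counting a gene by any of its entries, the core was in 4 of the 4 risen metal members with a promoter entry (Mt1 6 matches, Slc31a2 1), in both that fell (Tfrc 3, Slc41a3 1) and in 1 of the 2 that did not pass (Mt3 3). Of all promoters 20.6% held it. Members that rose and members that fell were not separated by its presence.

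Oxidant defence genes were mostly higher, with 20 of 27 members rising, 5 falling and 2 not passing, and a median log2 fold change of 1.24. Of the 5 members named from other tables, none rose and 3 fell. Bach1, a haem-binding repressor of antioxidant genes, was at 22.6, 24.4 and 27.1 CPM in CTRL and at 34.1, 67.6 and 88.6 CPM in HI (1.41 ± 0.19, adjusted p = 2.1e-06). Cat, the catalase gene, was at 70.5, 87.4 and 127 CPM and at 110, 187 and 337 CPM, with 1 HI rat inside the CTRL range (1.26 ± 0.19, adjusted p = 1.2e-05). Pir, an iron-binding nuclear protein, was at 4.15, 4.71 and 6.94 CPM and at 10.5, 13.3 and 33.8 CPM without overlap (1.96 ± 0.31, adjusted p = 1.7e-05).

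Hmox1, the haem oxygenase that frees iron from haem, went from 2.63 to 4.17 CPM in CTRL to 5.36 to 45.9 CPM in HI (2.70 ± 0.45, adjusted p = 3.7e-05). Srxn1, which restores peroxiredoxins, reached 1.37 to 12.3 CPM from 0.521 to 1.26 CPM (2.99 ± 0.49), and the thioredoxin reductase Txnrd1 77.9 to 215 CPM from 49.5 to 62.2 CPM (1.26 ± 0.23). Small Maf partners Mafg (1.19 ± 0.21) and Maff (2.16 ± 0.41) and the inhibitor Keap1 (1.02 ± 0.18), which holds the factor NRF2 in the cytoplasm, rose as well. The 5 members that fell, chosen for mention after their values were seen, were Nqo2 (-0.95 ± 0.23), the extracellular superoxide dismutase Sod3 (-1.0 ± 0.25), Glrx (-0.75 ± 0.20), Osgin2 (-0.68 ± 0.24) and the glutathione peroxidase Gpx1 (-0.87 ± 0.33). That count was 3 without HI replicate 1, without HI replicate 3, without CTRL replicate 6 or with library totals.

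The promoter of Txnrd1 is printed as the example of the antioxidant response element core TGACNNNGC, which 3 of the 15 risen oxidant defence genes with a promoter entry held (Gclm, Pir and Txnrd1) and 10.1% of all promoters held. It lies at chr7:22755905-22756154 on the minus strand in GRCr8 of RefSeq, and the match in capitals is on the other strand. A further Txnrd1 entry, at chr7:22764852-22765101, had 0 matches.
Txnrd1: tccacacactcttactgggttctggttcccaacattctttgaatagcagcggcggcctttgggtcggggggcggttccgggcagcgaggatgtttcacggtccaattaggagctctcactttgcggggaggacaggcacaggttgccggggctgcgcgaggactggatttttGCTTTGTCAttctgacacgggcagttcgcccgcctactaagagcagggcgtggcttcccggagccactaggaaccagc
None of the 3 fallen members with an entry had the core, nor did either of the 2 that did not pass.

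Immediate early transcription factors rose in 9 of 15 cases and fell in 0 (1 with the LRT plantaris libraries fitted alone), with 6 not passing. All 9 came from the table of this comparison, and of the 6 from other tables, 0 passed. After Fosb, the AP-1 subunit Junb was at 4.43, 7.74 and 9.56 CPM in CTRL and at 15.3, 25.7 and 63.9 CPM in HI (2.03 ± 0.35, adjusted p = 4.5e-05), and Myc, which drives growth and ribosome genes, at 2.44, 2.92 and 4.22 CPM and at 4.72, 9.76 and 26.4 CPM (2.11 ± 0.43, adjusted p = 0.00034). Neither overlapped between groups. Fos itself rose with overlap, from 4.91 to 40.3 CPM in CTRL to 31.8 to 94.0 CPM in HI (1.58 ± 0.51, adjusted p = 0.017). The orphan nuclear receptors Nr4a1, Nr4a2 and Nr4a3 had log2 fold changes of -0.87 ± 0.43, -0.87 ± 0.48 and -0.14 ± 0.59, and none passed.

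NF-kB and TNF receptor genes were mostly higher, with 11 of 15 rising, 2 falling and 2 not passing, and with 0 of the 2 members from other tables called. Nfkb2, the precursor of the p52 subunit, was at 9.16, 10.8 and 13.3 CPM in CTRL and at 15.1, 35.6 and 59.7 CPM in HI without overlap (1.73 ± 0.25, adjusted p = 5.2e-06). Its partner Relb (1.65 ± 0.28) and Map3k14 (1.70 ± 0.33), the kinase of the non-canonical branch, also rose. Eda2r, a receptor of the TNF receptor family, was at 17.9, 22 and 40.4 CPM and at 40.2, 136 and 314 CPM, the lowest HI rat just within the CTRL range (2.71 ± 0.41, adjusted p = 9.8e-06). Traf5, an adaptor of such receptors, was at 7.12, 8.00 and 10.8 CPM in CTRL and at 2.62, 3.89 and 4.81 CPM in HI (-1.17 ± 0.14, adjusted p = 2.3e-07), and Tnfrsf19 also fell (-1.35 ± 0.34, adjusted p = 0.0022). Tnfrsf12a, the receptor of TWEAK, had 0.59 ± 0.62 and the chemokine Ccl2 0.61 ± 0.38, and neither passed, while the chemokine Ccl7 rose with overlap (1.27 ± 0.39, adjusted p = 0.012). The leukocyte marker sums given above overlapped between groups, while the 9 markers had a median log2 fold change of 0.67 (-0.91 to 0.93). The part of leukocytes in these values was not tested.

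Insulin, IGF and translation control genes were mixed, with 6 of 13 higher, 2 lower and 5 not passing (1 of 5 from other tables lower). The other 8 were named from the table of this comparison, so the count is not read against the 28.7% of all genes called. Pim3, a serine kinase, was at 8.62, 10.5 and 13.3 CPM in CTRL and at 16.9, 27.2 and 36.5 CPM in HI (1.34 ± 0.19, adjusted p = 4.8e-06). The initiation scaffold gene Eif4g3 was at 85.4, 95.0 and 106 CPM and at 151, 219 and 246 CPM (1.16 ± 0.17, adjusted p = 7.9e-06), and the IGF-I receptor gene Igf1r at 8.60, 9.19 and 10.4 CPM and at 13.9, 18.8 and 27.3 CPM (1.05 ± 0.16, adjusted p = 1.1e-05). All 3 were fully apart. Foxo1, a forkhead factor of the atrophy programme, rose with 1 HI rat inside the CTRL range (1.15 ± 0.24, adjusted p = 0.00045), as did the translation repressor Eif4ebp1 (1.09 ± 0.22, adjusted p = 0.00026). The fallen members were the receptor substrate Irs1 (-0.86 ± 0.27, adjusted p = 0.014) and the kinase subunit Pik3cd (-0.99 ± 0.21, adjusted p = 0.00056), a count that was 1 without HI replicate 1. Irs2 had 0.23 ± 0.39 and did not pass.

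**Figure D3:**
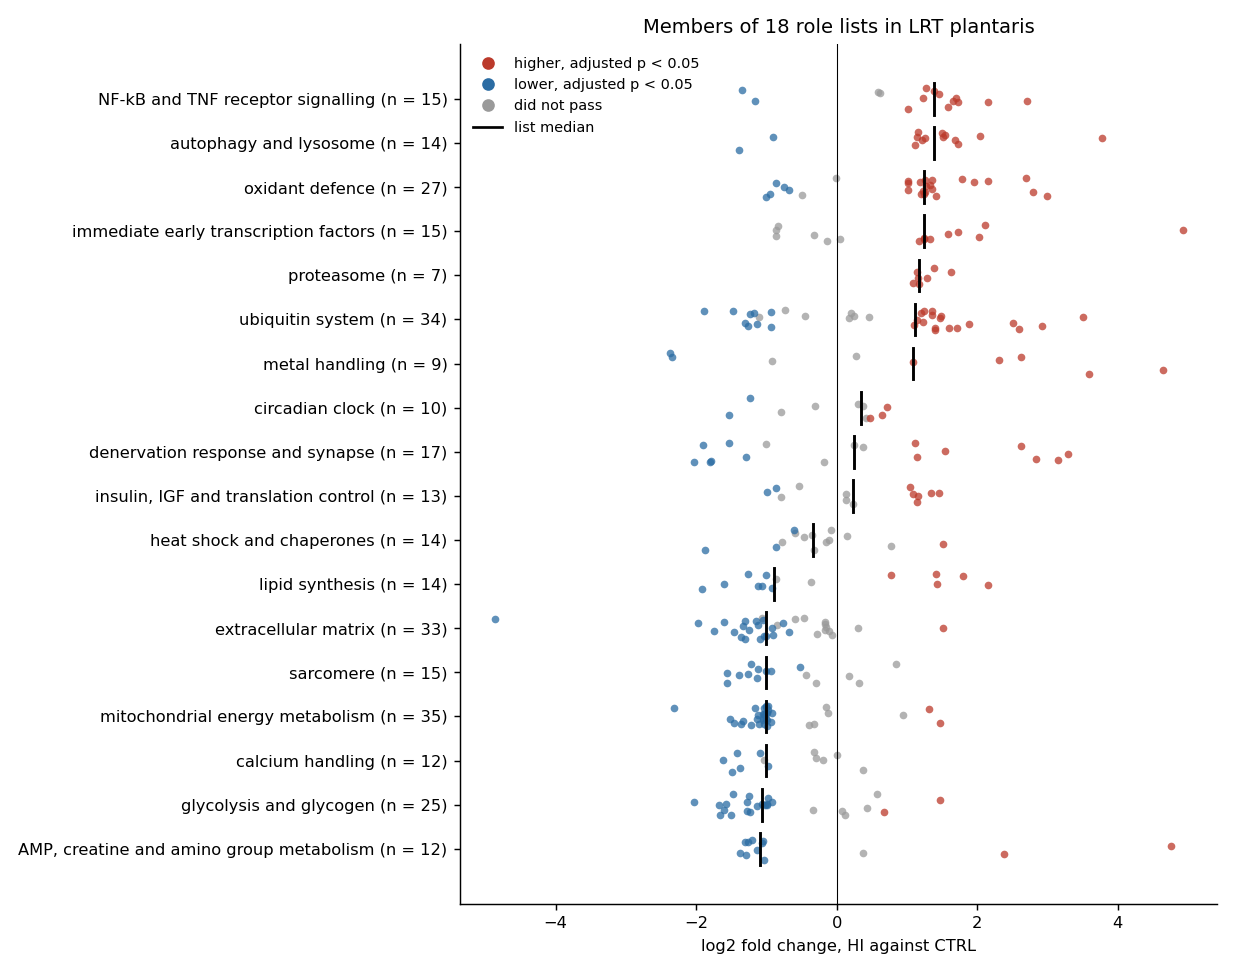
The plot gives the log2 fold change of HI over CTRL for each member of the 18 role lists, coloured by whether it passed the test, with a bar at the list's median. Medians run from -1.10 for AMP, creatine and amino group metabolism to 1.39 for NF-kB and TNF receptor signalling, and the denervation list has members at both ends around a median of 0.25.

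Glycolysis and glycogen genes were mostly lower. Of 25 members 18 fell, 2 rose and 5 did not pass, with a median log2 fold change of -1.06 (of the 6 from other tables, 1 rose and 0 fell). Pgk1, which makes ATP in glycolysis, was at 1335, 1484 and 1802 CPM in CTRL and at 423, 724 and 1189 CPM in HI (-0.99 ± 0.16, adjusted p = 2.7e-05). The groups did not overlap. The muscle enolase Eno3 fell from 6682 to 8809 CPM in CTRL to 1391 to 5402 CPM in HI (-1.28 ± 0.22), the lactate dehydrogenase Ldha from 3406 to 4430 CPM to 319 to 2374 CPM (-1.6 ± 0.32) and the insulin-responsive glucose transporter Slc2a4 from 480 to 635 CPM to 114 to 425 CPM (-0.99 ± 0.24). The largest fall was that of Fbp2, the muscle fructose bisphosphatase, from 103 to 136 CPM to 2.40 to 75.4 CPM (-2.03 ± 0.53, adjusted p = 0.0032).

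H6pd, which makes NADPH in the endoplasmic reticulum, went against the list, with 27.5, 32.8 and 33.9 CPM in CTRL and 42.2, 91.7 and 144 CPM in HI (1.47 ± 0.19, adjusted p = 2e-06). The other member that rose, named after its value was seen, was Aldoc, an aldolase isoform, from a median of 2.54 to 3.92 CPM (0.67 ± 0.25, adjusted p = 0.043). The count of risen members was 1 without any single CTRL rat, without HI replicate 1, 2, 3 or 4, under limma-voom and with all genes that had a count, and it remained 2 without HI replicate 5 or 6. Fast-fibre marker sums fell with these genes, and 1 of those markers, Eno3, is also a member here. The part of fibre type in the result was not tested.

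Mitochondrial genes were mostly lower. Of 35 members 28 fell, 2 rose and 5 did not pass, with a median of -1.01 (0 of the 5 from other tables passed), and the falls ran from -0.92 for Coq9 to -2.32 for Perm1. Ndufs1, of respiratory complex I, was at 438, 610 and 649 CPM in CTRL and at 181, 305 and 381 CPM in HI (-1.01 ± 0.16, adjusted p = 1.3e-05). Ckmt2, the mitochondrial creatine kinase of muscle, was at 1107, 1390 and 1513 CPM and at 298, 447 and 790 CPM (-1.36 ± 0.21, adjusted p = 1.7e-05), and Hadh, of fatty acid oxidation, at 133, 180 and 207 CPM and at 50.3, 84.4 and 127 CPM (-1.0 ± 0.17, adjusted p = 3.1e-05). None of the 3 overlapped between groups. Transcriptional regulators of mitochondria were among the fallen, with Perm1 at -2.32 ± 0.44 from 140 to 227 CPM in CTRL to 16.5 to 85.9 CPM in HI, Ppargc1b at -1.33 ± 0.29 and Ppargc1a at -1.01 ± 0.28, while Esrrg had -0.13 ± 0.21 and did not pass. The risen members were Chchd6 (1.32 ± 0.33, adjusted p = 0.0024), of the inner membrane organising complex, and the uncoupling protein Ucp3 (1.47 ± 0.51, adjusted p = 0.026), both with overlap. This count was 1 without CTRL replicate 1, without CTRL replicate 4, without CTRL replicate 6 or with the LRT plantaris libraries fitted alone.

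Of 12 genes of AMP, creatine and amino group metabolism 9 fell, 2 rose and 1 did not pass (0 of 1 from other tables). The risen were Ampd3, described above, and Sat1, the rate-limiting enzyme of polyamine breakdown. Sat1 was at 19.2, 19.6 and 27.3 CPM in CTRL and at 30.1, 58.0 and 241 CPM in HI (2.38 ± 0.35, adjusted p = 6e-06). Got1, the cytosolic aspartate aminotransferase, was at 358, 388 and 396 CPM and at 61.2, 130 and 264 CPM, all HI rats below CTRL (-1.38 ± 0.26, adjusted p = 0.00015). The adenylate kinase Ak1 fell from 437 to 692 CPM in CTRL to 130 to 429 CPM in HI (-1.06 ± 0.26) and the AMP nucleotidase Nt5c1a from a median of 37.8 to 18.1 CPM (-1.20 ± 0.24). Gamt, of creatine synthesis, fell from 26.3 to 31.7 CPM to 4.87 to 20.7 CPM (-1.29 ± 0.26).

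Calcium handling and sarcomere genes contained no member that rose, except 1 of calcium handling with library totals and 1 of the sarcomere without CTRL replicate 3 or with the plantaris or LRT plantaris libraries fitted alone. Of 12 calcium handling members 6 fell and 6 did not pass, with all 6 from other tables among the latter. Casq1, the fast-fibre calcium buffer of the sarcoplasmic reticulum, was at 1811, 2159 and 2412 CPM in CTRL and at 287, 896 and 1125 CPM in HI (-1.49 ± 0.22, adjusted p = 6.6e-06). Srl, sarcalumenin of the same store, was at 1277, 1358 and 1445 CPM and at 310, 759 and 1058 CPM (-0.98 ± 0.18, adjusted p = 0.00011), and Dhrs7c, a reticulum enzyme, at 240, 290 and 334 CPM and at 23.8, 92.1 and 178 CPM (-1.62 ± 0.31, adjusted p = 0.00015). All 3 were fully apart. The calcium pump Atp2a1 had -0.32 ± 0.30 and did not pass. Pvalb, the cytosolic buffer of fast fibres, was lower in all 6 HI rats, at 1067 to 1530 CPM against 1981 to 3116 CPM, yet had -1.04 ± 0.49 with an adjusted p of 0.11 in the shared fit. Casq1, Atp2a1 and Pvalb are also fast-fibre markers, whose sum was lower in every HI rat, and the part of fibre type in these values was not tested.

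Among sarcomere genes 10 of 15 fell and 5 did not pass (1 of 5 from other tables fell). Lmod3, which nucleates thin filaments, was at 214, 233 and 276 CPM in CTRL and at 24.5, 90.6 and 172 CPM in HI (-1.56 ± 0.33, adjusted p = 0.00046). Myoz3, a Z-disc protein, was at 59.3, 87.7 and 103 CPM and at 11.2, 30.3 and 58.9 CPM (-1.39 ± 0.33, adjusted p = 0.0014), and Lmod1 at 61.0, 72.7 and 86.1 CPM and at 8.53, 35.0 and 66.8 CPM with 1 HI rat inside the CTRL range (-1.14 ± 0.27, adjusted p = 0.0016). The fast regulatory light chain Mylpf fell from 8117 to 10666 CPM to 2410 to 6112 CPM (-1.22 ± 0.39, adjusted p = 0.017). Ankrd2 and Xirp1, mentioned after their values were seen, did not pass, Ankrd2 with 15.0 to 308 CPM in HI and 52.9 to 148 CPM in CTRL (-0.29 ± 0.75) and Xirp1 with 0.17 ± 0.52. Mylpf and Myoz1 are also fast-fibre markers, and the part of fibre type was not tested here either.

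Of 14 heat shock and chaperone genes 1 was higher, 3 were lower and 10 did not pass (2 of 12 from other tables lower). Of all genes 28.7% were called, and the list cannot be read against that share because its names come from selected tables. Itgb1bp2, the muscle chaperone melusin, was at 52.0, 61.5 and 71.8 CPM in CTRL and at 3.19, 17.6 and 32.2 CPM in HI (-1.88 ± 0.38, adjusted p = 0.00028). Dnajb5 also fell (-0.61 ± 0.22, adjusted p = 0.031). Dnajc6, under 1 CPM in every rat, was the member that rose (1.52 ± 0.47, adjusted p = 0.014), a call lost without HI replicate 3 (adjusted p = 0.074) and under limma-voom (adjusted p = 0.075). With library totals the risen members were 2. The inducible Hspa1b had -0.33 ± 0.59, Cryab -0.15 ± 0.38 and Hspb1 0.77 ± 0.38.

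Extracellular matrix genes fell in 20 of 33 cases, rose in 1 and did not pass in 12, with a median of -1.0 (4 of the 15 from other tables fell). Fbn1, fibrillin of the microfibrils, was at 224, 271 and 308 CPM in CTRL and at 64.3, 74.8 and 187 CPM in HI (-1.6 ± 0.30, adjusted p = 0.00012). Col5a3, a collagen V chain, was at 22.9, 28.2 and 38.0 CPM and at 8.70, 10.1 and 14.8 CPM (-1.46 ± 0.26, adjusted p = 7e-05). Neither overlapped. Col3a1 and Col1a1, chains of fibril collagens, fell with overlap, Col3a1 from 245 to 513 CPM to 94.2 to 336 CPM (-1.25 ± 0.41, adjusted p = 0.018) and Col1a1 from 70.3 to 435 CPM to 24.2 to 203 CPM (-1.36 ± 0.53, adjusted p = 0.047), while Col11a1 (-0.11 ± 0.38) and Col11a2 (0.30 ± 0.42) did not pass. Ltbp1, which stores latent TGF-beta in the matrix, was the member that rose, at 43.6, 53.0 and 73.0 CPM in CTRL and at 65.4, 106 and 315 CPM in HI with overlap (1.51 ± 0.28, adjusted p = 9.7e-05). Ctgf (-0.15 ± 0.32) and Thbs1 (-0.16 ± 0.34), targets of TGF-beta, did not pass. The fibroblast and tendon marker sums were lower in HI beside these genes, and Lum, Col1a1, Col3a1 and Cilp2 are on both lists. The part of fibroblast number in the result was not tested.

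Lipid synthesis genes split, with 5 of 14 higher, 7 lower and 2 not passing (1 of 2 from other tables higher). Acsl4, which activates polyunsaturated fatty acids, was at 54.4, 58.8 and 77.7 CPM in CTRL and at 115, 147 and 385 CPM in HI (1.80 ± 0.26, adjusted p = 4.9e-06). Hacd1, a muscle dehydratase of chain elongation, was at 19.6, 24.7 and 27.7 CPM and at 8.38, 11.3 and 13.2 CPM (-1.12 ± 0.18, adjusted p = 2.9e-05). In both genes the groups were fully apart. The other risen members were Insig1 (1.43 ± 0.28), Thrsp (2.16 ± 0.43), Lss (1.42 ± 0.36) and Dgat2 (0.77 ± 0.24), and the fatty acid synthase Fasn (-1.26 ± 0.26) and the desaturase Scd (-1.92 ± 0.57, adjusted p = 0.010) were among those that fell. Thrsp and Dgat2 are also fat cell markers, whose sum was higher in every HI rat than in any CTRL rat, and the part of fat cells in these values was not tested.

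Of 10 clock genes 3 were higher, 2 lower and 5 did not pass, and all 3 risen members came from other tables. Of all genes 28.7% were called, a share that the list cannot be read against. Its names came from the table of this comparison for 3 members and from other tables for 7. Npas2, a partner of Bmal1, was at 2.60, 4.62 and 5.71 CPM in CTRL and at 0.403, 1.40 and 3.24 CPM in HI (-1.53 ± 0.29, adjusted p = 0.00017), and the repressor Bhlhe41 at 12, 17 and 20.2 CPM and at 3.24, 6.99 and 11.4 CPM without overlap (-1.24 ± 0.33, adjusted p = 0.0038). Among the risen were Per2 (0.65 ± 0.20, adjusted p = 0.012) and Tef (0.48 ± 0.17, adjusted p = 0.030), and the count of risen members was 1 without HI replicate 4. Arntl, the Bmal1 gene, had -0.31 ± 0.34 and did not pass.

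The 6 immobilized rats differed more among themselves than the 6 controls. The SD of log2 CPM was larger in HI than in CTRL for 68.6% of genes, with a median of 0.287 against 0.196. Over the 466 higher DEGs the median log2 difference from the CTRL mean was 1.86, 0.97, 1.80, 0.99, 0.91 and 0.55 in HI replicates 1 to 6, and over the 413 lower DEGs it was -2.03, -1.16, -2.04, -1.10, -1.14 and -0.60. HI replicates 1 and 3 were thus the strongest and replicate 6 the weakest in both directions. These values describe the rats in which the DEGs were chosen. RIN was 8.3 in HI replicates 1, 2, 3 and 5, 8.5 in replicate 4 and 8.6 in replicate 6, and its part in the order was not tested.

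Trim63 shows the pattern, with 2499 and 2689 CPM in HI replicates 1 and 3, 829, 930 and 1204 CPM in replicates 2, 4 and 5 and 396 CPM in replicate 6. Ampd3 was at 744 and 695 CPM in replicates 1 and 3 and at 28.6 CPM in replicate 6, a 26.1-fold range among rats of 1 group. HI replicates 1 and 3 were the 2 highest for 312 of the 466 higher DEGs (67%) and the 2 lowest for 260 of the 413 lower DEGs (63%).

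Lists did not all follow that order. For the 18 risen ubiquitin members the median log2 difference was 2.19 in replicate 1 and 0.48 in replicate 6, and for the 18 fallen glycolysis members it was -2.51 and -0.58. The median over the 5 risen metal handling members was close to even, at 2.3, 2.19, 2.23, 2.0, 2.57 and 1.83 in replicates 1 to 6, but single members were not. Slc30a2 ranged 23.5-fold, Slc31a2 was at 29.6 and 23.6 CPM in replicates 1 and 3 and at 11.7 CPM in replicate 6, and LOC100909856 was listed at 0 in replicates 4 and 6 and at 4.05 CPM in replicate 2. Mt2A was highest in replicate 6, at 24.8 CPM, and lowest in replicate 3, at 10.8 CPM. The 20 fallen matrix members were at -1.42, -1.16, -1.55, -1.15 and -1.47 in replicates 1 to 5 and at -0.38 in replicate 6, and Fbn1 showed the same, with 64.3 to 81.9 CPM in 5 HI rats and 187 CPM in replicate 6. Fosb stood highest in replicate 2, at 27.6 CPM. No test was made of these differences between lists.

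**Figure D4:**
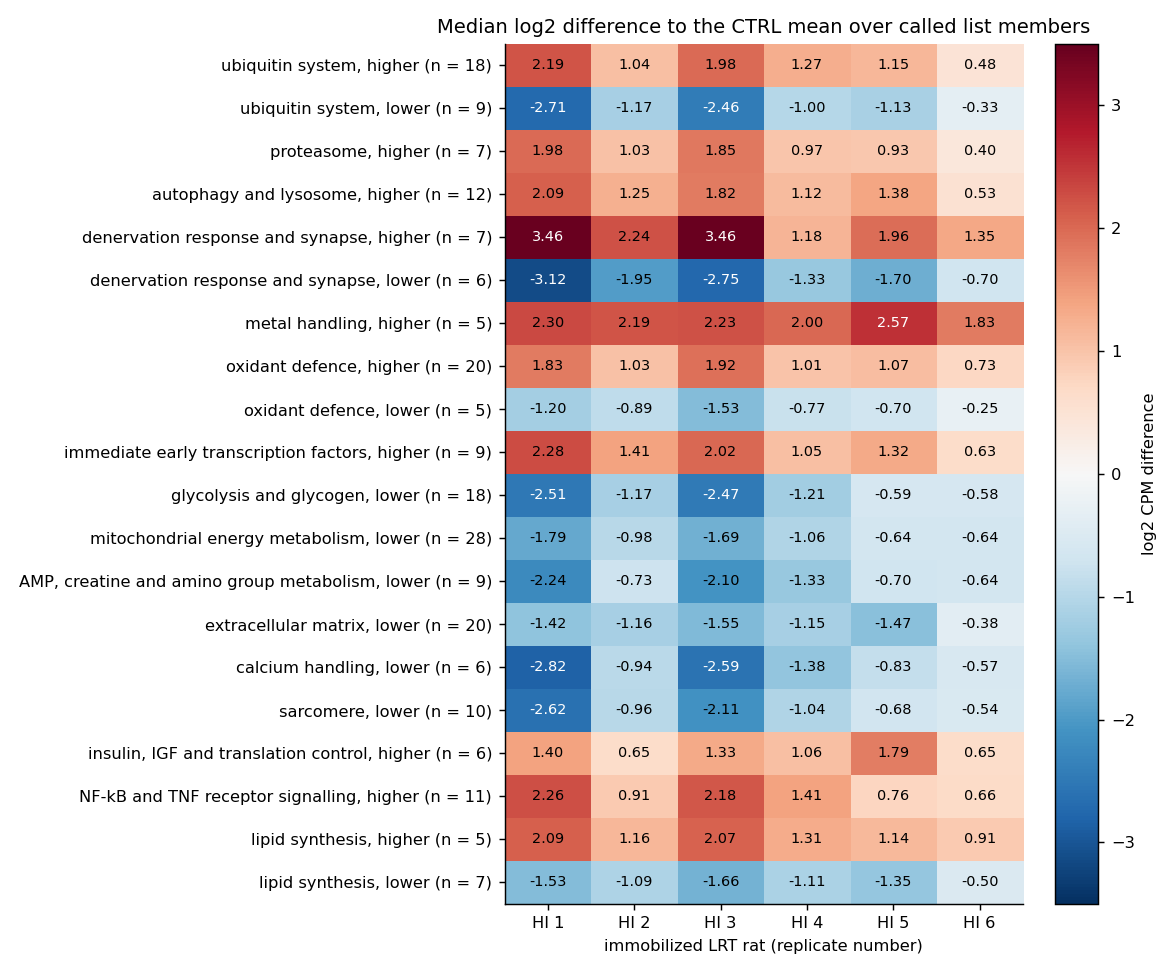
The heat map gives, for each HI rat (columns, replicates 1 to 6), the median log2 difference from the CTRL mean over the called members of each list (rows, lists with at least 5 such members). Columns 1 and 3 are the deepest and column 6 the palest in most rows, while the row of metal handling medians is near even at 1.83 to 2.57.

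The same cast was compared in the HRT line to ask whether the LRT response differed from it. HRT HI and HRT CTRL plantaris (6 rats each, 14-month-old females of generation 19 treated the same way) shared no library with the LRT comparison. In HRT, 1859 of 16960 genes (11.0%) passed the test, but a count in each line is no test of a difference. The difference between the 2 log2 fold changes (DELTA, LRT minus HRT) passed for 0 genes by edgeR, with a smallest adjusted p of 0.36 and with 1060 genes (6.25%) at an unadjusted p under 0.05. DESeq2 called 0 and limma-voom 1. Single HRT HI rats were uneven as well in their median log2 difference from the HRT CTRL mean. Over the 466 higher DEGs of LRT it was 0.93, 0.42, 0.29, 1.38, 0.33 and 0.3 in replicates 1 to 6. Over the 413 lower DEGs it was -1.11, -0.71, -0.43, -1.52, -0.55 and -0.6. These DEGs were chosen in LRT, so the values are not read as a difference in size between the lines.

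For most of the named genes the LRT estimate was the larger in size, with no DELTA past the adjusted threshold. In LRT the estimate for Trim63 was 2.60 ± 0.37, against 1.62 ± 0.37 in HRT (DELTA 0.98 ± 0.50, unadjusted p = 0.057, adjusted p = 0.81), and the pair for Fbxo32 was 2.51 ± 0.34 and 1.58 ± 0.34 (DELTA 0.93 ± 0.46, unadjusted p = 0.05, adjusted p = 0.8). Hdac4 had 2.83 ± 0.44 and 2.29 ± 0.45 (DELTA 0.53 ± 0.59, unadjusted p = 0.37, adjusted p = 0.91), and Ampd3 4.76 ± 0.69 and 2.82 ± 0.66 (DELTA 1.94 ± 0.87, unadjusted p = 0.03, adjusted p = 0.78). The estimates were closer for some members, Fbn1 with -1.6 ± 0.30 and -1.50 ± 0.29, Col5a3 with -1.46 ± 0.26 and -1.43 ± 0.26 and Mt2A with 2.31 ± 0.44 and 2.43 ± 0.46. Other matrix genes were farther apart, Mfap4 with -4.87 ± 1.29 and -0.11 ± 0.94 (DELTA -4.76 ± 1.64, unadjusted p = 0.0059, adjusted p = 0.75) and Ltbp1 with 1.51 ± 0.28 and 0.61 ± 0.28 (DELTA 0.90 ± 0.39, unadjusted p = 0.025, adjusted p = 0.78). Names drawn mainly from the LRT table favour genes with large LRT values, so these pairs do not speak for all genes.

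Tmem51, a transmembrane protein, had the smallest DELTA p among named genes. It was at 1.12, 1.72 and 2.20 CPM in LRT CTRL and at 1.87, 4.24 and 12 CPM in LRT HI (1.67 ± 0.28), with -0.18 ± 0.30 in HRT and a DELTA of 1.85 ± 0.41 (unadjusted p = 4.3e-05, adjusted p = 0.36). Tmem37, a calcium channel gamma-like subunit, had 1.24 ± 0.33 in LRT and -0.53 ± 0.33 in HRT (DELTA 1.77 ± 0.46, adjusted p = 0.75), and LOC102555635 had -1.16 ± 0.18 and -0.23 ± 0.18 (DELTA -0.93 ± 0.25, adjusted p = 0.75). None passed in the fit of all libraries. Without HI replicate 6 of LRT, 3 genes passed, namely Tmem51 (2.02, adjusted p = 0.027), LOC102555635 (-1.15, adjusted p = 0.040) and ENSRNOG00000014720 (-0.88, adjusted p = 0.027). Without CTRL replicate 5, and under limma-voom, the gene that passed was LOC100362027, which was listed at 0 in 5 of 6 LRT CTRL rats and at 34.3 CPM in the other.

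**Figure D5:**
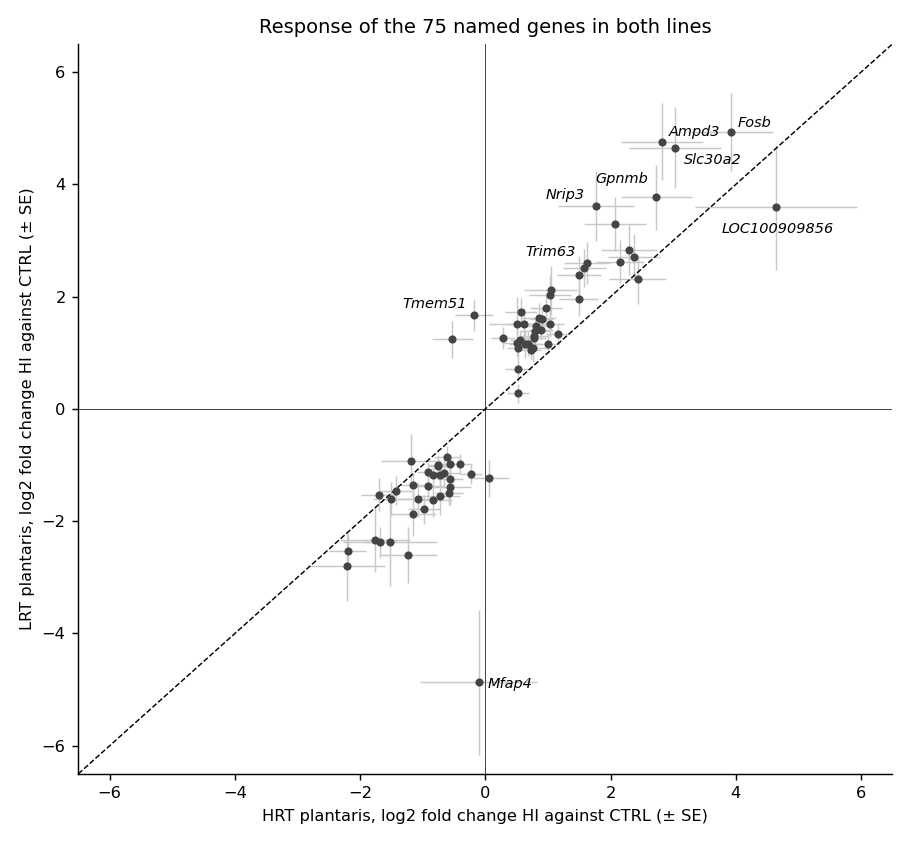
The log2 fold change of HI over CTRL in LRT plantaris (y axis) is plotted against that in HRT plantaris (x axis) for the 75 named genes, with bars of 1 standard error and a line of equal change. Most points lie between the line and the y axis, Mt2A and Fbn1 lie near the line, and Tmem51 lies at 1.67 in LRT and -0.18 in HRT.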

How the data were processed

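The authors quantified reads with Salmon 0.9.1 (version from the submitters' processing notes) against rat Ensembl transcripts and summed them per gene with tximport, and the deposited values are estimated counts of 31998 genes, not normalized between libraries. Fractions remained in 66.0% of values, which were rounded to whole numbers. The kit is TruSeq RNA in the labels but a stranded total RNA kit in the methods, so strand is not settled and overlapping genes are uncertain. Estimated counts can also split reads between near-identical copies.

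Genes were kept by filterByExpr and fitted over 48 libraries with edgeR 4.0.16 (R 4.3.3), TMM, the 8 groups and RIN. Plantaris and soleus of the same 24 rats were treated as independent, which is checked by fitting plantaris alone. The cut-offs for DEGs were 1 for the absolute log2 fold change and 0.05 for the adjusted p. Per-rat log2 differences use 0.1 CPM as an offset. In the LRT plantaris comparison each library is a separate rat. The spread behind the p-values was estimated for each gene over all 48 libraries, and so over both muscles and both lines. The chain was tested on simulated data. Limma 3.58.1 and DESeq2 1.42.0 gave alternatives. Counts of 3 were taken as the floor. Other alternatives were DESeq2 size factors, library totals, no RIN, other count filters, smaller sets of libraries, the replicate number as a block, a stricter threshold and each rat left out in turn.

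Symbols come from the study's tables of changed genes, whose fold changes and p-values were not used. Promoters are from RefSeq on GRCr8, while the counts rest on an earlier build, and of 321 list members 309 had a RefSeq symbol. Named genes were, by rule, the 3 members with the smallest p in each list (every member of lists of at most 9), the 5 largest rises and falls among named DEGs without overlap, Trim63, Fbxo32 and Hdac4, and the 3 named genes with the smallest DELTA p. A few genes that the lists or the rule hold are not reported here. Others are named to account for small counts or as examples chosen after their values were seen. Members and lists were chosen with earlier results of these data known. Python 3.11.15, pandas 2.3.3, numpy 2.4.6 and matplotlib 3.10.9 were used. Protein and muscle mass data of the study were not used here.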

Additional observations from a re-analysis of the deposited data

Results flagged for a closer look

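In 13 groups of 6 rats the most extreme value of a named gene stood apart from the other 5 by a share of the group's range above the critical value of Dixon's test, out of 142 groups looked at. Chance alone gives such a value in about 1 of 20 groups.

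Of these 13, 5 were CTRL replicate 3, always as the highest CTRL rat and in genes that rose in HI. Its level was 395 CPM for Fbxo32 (next 216), 70.1 CPM for Psmd8 (next 56.9), 35.7 CPM for Psmd5 (next 26.8), 6.94 CPM for Pir (next 5.10) and 27.3 CPM for Sat1 (next 19.8). Over the 466 higher DEGs that rat had a median log2 difference of 0.13 from the CTRL mean, and over the 413 lower DEGs -0.18. CTRL replicate 2 was high for Cat (127 CPM, next 90.8) and Myc (4.22 CPM, next 3.05) and low for H6pd (27.5 CPM, next 32.5). CTRL replicate 4 was high for Mt1 (1.81 CPM, next 0.718) and the only CTRL rat above 0 for LOC100909856 (0.939 CPM).

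Among HI rats, replicate 6 was high for Fbn1 (187 CPM, next 81.9), replicate 3 for Dnajc6 (0.907 CPM, next 0.490) and replicate 4 for Mfap4 (0.599 CPM, the others at 0). Without CTRL replicate 3 there were 940 DEGs, against 879 with all rats.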

How the results depend on the processing

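Of the 75 named genes 69 kept their direction and their side of the threshold under every alternative, and over all pairs of a named gene and an alternative 1630 did so, 7 lost the call, 1 gained it and 0 reversed. The gain was Slc25a28 with library totals (log2 fold change 0.51, adjusted p = 0.022), and Tmem37 lost its call with the LRT plantaris libraries alone (adjusted p = 0.065). For LRT plantaris HI against CTRL 1313 genes were called at an adjusted p under 0.001, against 4862. DEGs, 879 with all rats, numbered 472 at that threshold and 569 among the 13519 genes that had 10 counts or more in each library, where fewer genes were tested and 2 metal handling members rose. The share of DEGs that were lower, 47.0% with TMM, was 20.4% with library totals and 57.8% with limma-voom, and the cause was not tested. DEG counts were 886 with DESeq2 size factors, 904 with the DESeq2 Wald test, 873 with limma-voom, 856 without RIN, 964 for genes with any count, 837 for plantaris alone and 920 for LRT plantaris alone. Leaving out 1 rat gave 609 (without HI replicate 1) to 1176 (without HI replicate 6) DEGs, of which 582 and 863 were shared with the 879, and 621 without HI replicate 3. DELTA gave 1 gene with limma-voom and 0 to 3 genes with 1 rat left out (1 without CTRL replicate 5, 3 without HI replicate 6). Heat shock members that fell were 5 with plantaris alone, against 3. With the replicate number as a block there were 903 DEGs, 830 of them shared, and no call of a named gene changed. Same-numbered HI and CTRL rats correlated in their deviations by -0.041, 0.005, 0.023, 0.072, -0.021 and -0.022, and only number 4 matched itself best, so the numbers do not pair the rats. Depth limits genes under 1 CPM such as Lrrc52 and Dnajc6.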
